A study of Rattus norvegicus with 30 samples.

Results

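The 48 genes described here carry out or restrain the cell cycle and DNA replication: 11 act in G1, 6 are inhibitors or growth-arrest genes, 12 act in S phase and 19 in G2 and mitosis. They were chosen by name, with earlier results of these data known. Their probe sets are those whose platform annotation gives 1 of these symbols and no other. Of the 48, 46 had at least 1 such probe set (62 in all), out of 14218 genes and 31099 probe sets on the array. The 4 classes follow the genes' textbook roles, and a gene that acts in several phases stands in only 1 of them.

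The study exposed primary rat hepatocytes to WY-14643, which activates the nuclear receptor PPARα, and read their RNA on a rat expression array. Wells received 8 µM, 200 µM or vehicle alone and were harvested 24 h or 48 h after dosing, which makes 6 groups of 5 wells, with 1 array per well. In every group the cells were bought frozen, came from male Sprague Dawley rats, were seeded on collagen, covered with Matrigel and dosed on day 3 of culture. The labels give no genetic change, no animal age and no number of donor animals, and they do not say whether wells held cells of different animals, so errors and p-values measure the spread between wells. Vehicle wells are labelled 1% DMSO. The labels describe the dosing concentrates as made in the same solvent, which leaves the DMSO content of treated medium uncertain.

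A cell enters the cycle when D-type cyclins with CDK4 or CDK6, and then cyclin E with CDK2, switch off the Rb protein and free E2F factors, which turn on the genes of DNA replication. The inhibitors p21 and p27 hold these kinases back, and Gadd45 and Plk2 are stress-induced genes of growth arrest. Later, cyclins A and B with CDK1 drive mitosis, in which kinetochores tie chromosomes to the spindle. Adult hepatocytes are mostly quiescent, and PPARα agonists are known to raise DNA synthesis in the liver of living rodents.

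The arrays gave similar overall signals apart from 1. The median signal was 765 on 48 h vehicle replicate 4, against 385 to 439 on the other 29, and the median correlation of that array with its own group was 0.896, against 0.973 to 0.980. Results that rest on it are given with it and without it, which was decided after its values were seen. Of 10 hepatocyte markers 9 had a probe set, and all 9 passed the signal filter, from Alb, Ttr and Apoa1 to Hnf4a. Of 10 macrophage markers 9 had a probe set and 8 passed, and none was at 0. Their summed signal was 29567 to 33944 in 24 h vehicle wells, 24033 to 26758 at 8 µM and 23652 to 27213 at 200 µM. At 48 h the macrophage sums were 22957 to 27239 in vehicle wells, 16910 to 20143 at 8 µM and 17798 to 19645 at 200 µM. Cd14 and Lyz2, with mean signals of 13056.5 and 6846, weigh most in these sums, and no other macrophage marker had a mean above 1472. Of the 8 tested, 2 fell at each dose at 24 h. At 48 h 2 fell and 1 rose at 8 µM, and 4 fell at 200 µM. Without 48 h vehicle replicate 4 the macrophage markers that fell at 200 µM were 4 at 24 h and 5 at 48 h. The hepatocyte sums were 497057 to 590288, 457136 to 499389 and 470636 to 519998 at 24 h, and 377552 to 552212, 362997 to 417219 and 371819 to 413962 at 48 h, in the same order. At 48 h 4 of 9 hepatocyte markers fell and 1 rose at each dose, with Ahsg at -1.20 and -0.99, Fgb at -1.12 and -0.55, and Cyp2e1 at 0.54 and 1.83 (8 µM and 200 µM, adjusted p from 1.3e-14 to 3.8e-04). Summed stellate markers (7 of 10 passed) were 4360 to 4883 in 24 h vehicle wells, 3427 to 4448 at 8 µM and 3454 to 4067 at 200 µM, and at 48 h 4446 to 8170, 4147 to 4662 and 3369 to 4342. Summed endothelial markers (5 of 6 with a probe set passed) overlapped between vehicle and treated wells in all 4 comparisons, and summed bile duct markers (2 of 5 passed) did so in 3, the exception being 200 µM at 24 h, with 6975 to 8057 against 8208 to 10411 in vehicle. Some of these endothelial and bile duct markers fell (adjusted p below 0.05) and none rose. Lyve1 was at -0.53 at 200 µM and 24 h and at -0.49 and -1.07 at 48 h. Tek was at -0.86 at 200 µM and 48 h. Krt19, of mean signal 182 against 9356 for Epcam, was at -1.72 at 8 µM and 24 h. At 48 h Krt19 was at -2.55 and -1.89. Epcam was at -0.34 at 200 µM and 24 h. Without 48 h vehicle replicate 4, 0 and 1 endothelial and 1 and 2 bile duct markers fell at 48 h. For β-actin, the probe set near the 3′ end gave on average a signal above that near the 5′ end, by a ratio of 2.86 and 2.61 in vehicle wells at 24 h and 48 h and between 3.10 and 3.31 in treated wells. For Gapdh the ratio did not rise in treated wells. At 24 h it was 1.17 to 1.23 in vehicle wells, 1.09 to 1.20 at 8 µM and 1.15 to 1.20 at 200 µM. At 48 h it was 1.11 to 1.22, 1.11 to 1.18 and 1.14 to 1.16. The part of other cell types and of RNA length in the changes of the 48 genes was not tested. In bulk RNA, fewer cells of a type and less RNA per cell cannot be told apart.

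Cdc6, a loader of the replicative helicase, had no probe set of its own, and both probe sets of Rrm2, the small subunit of ribonucleotide reductase, are shared with Rrm2l1. Of the remaining 46, 40 had a probe set that passed the signal filter, a signal above 281 on at least 5 of 30 arrays, set without regard to group. The 6 that did not pass all belong to mitosis. They are the proliferation marker Mki67, cyclin A2 (Ccna2), the mitotic kinase Cdk1, the phosphatase Cdkn3, the polo kinase Plk1 and the checkpoint kinase Bub1b. Mki67 and Cdkn3 were above 281 on 1 array each, and Ccna2, Cdk1, Plk1 and Bub1b on 0. All 11 G1 genes, all 6 inhibitors and growth-arrest genes and all 10 S phase genes with a probe set passed.

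**Figure D1:**
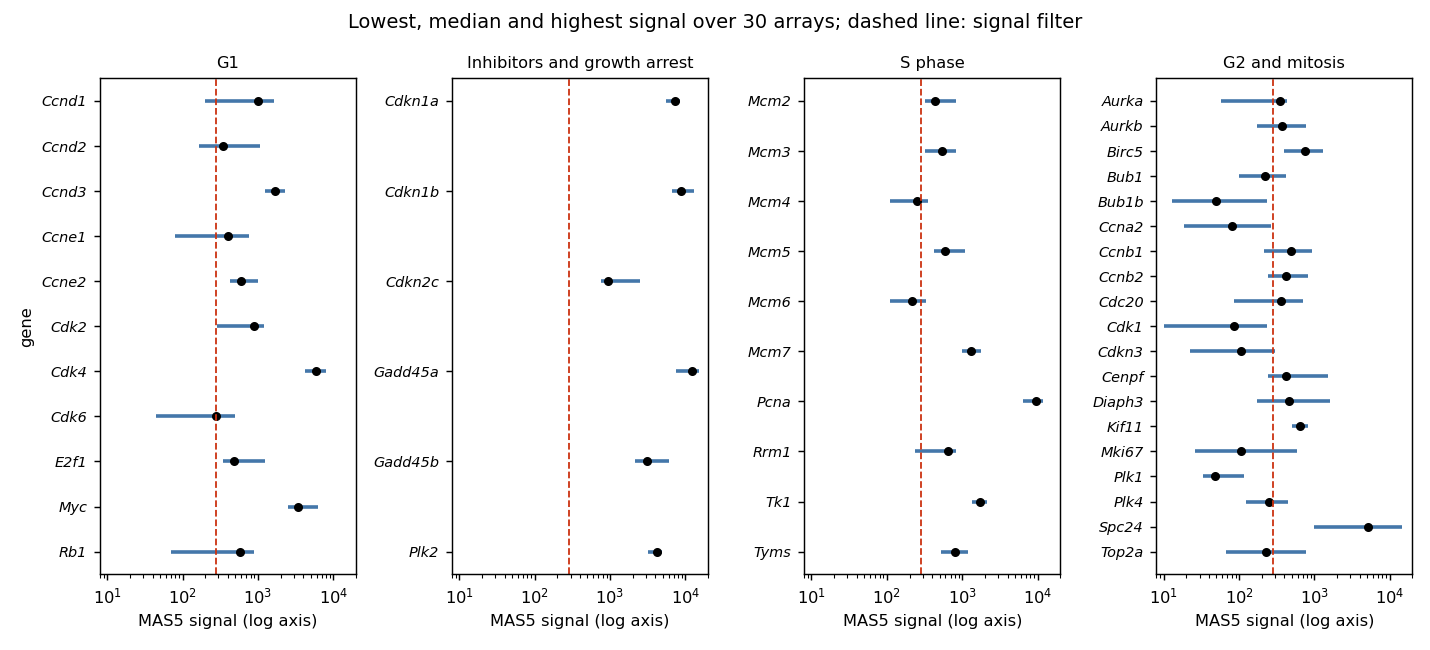
Signal of each of the 46 genes with a probe set (horizontal log axis), by class; lines run from the lowest to the highest of 30 arrays, dots are medians, and the dashed line is the filter at 281. The 6 genes that did not pass stand in the panel of G2 and mitosis, and values of different probe sets are not comparable as levels.

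Each dose was compared with the vehicle of its time, to ask which cell cycle genes the agonist changed. Values were tested on log2(signal + 16) with limma, with p-values adjusted by Benjamini-Hochberg over all 11545 genes tested, and a gene is said to rise or fall when its adjusted p was below 0.05. Log2 fold changes carry the standard error (SE) of the fit. The 2 doses at a time share their vehicle wells, so their results are not independent of each other.

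Of the 40 genes tested, 9 rose and 5 fell at 8 µM and 24 h, 35% of them, where 24.9% of all genes were called. At 200 µM and 24 h 8 rose and 5 fell, 32.5% against 24.7%. At 48 h 9 rose and 6 fell at 8 µM, 37.5% against 35.6%, and 10 rose and 5 fell at 200 µM, 37.5% against 33.8%. The shares at 48 h were thus near the background. The genes were chosen with earlier results known, so a share above the background is not evidence that cell cycle genes responded more. The median log2 fold change of the 40 was 0.02, 0.07, -0.08 and 0.03 in these 4 comparisons, beside -0.03, -0.02, -0.06 and -0.05 over all genes, so the genes did not shift together. Without 48 h vehicle replicate 4 the counts were 11 and 5, 11 and 5, 10 and 5, and 11 and 5, where 13.7% and 17.1%, 14.6% and 16.3%, 16.8% and 20.2%, and 17.2% and 18.8% of all genes rose and fell.

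The counts by class were small, and differences between classes were not tested. Among 11 G1 genes 5 rose and 1 fell at 8 µM and 24 h, 3 and 1 at 200 µM and 24 h, 2 and 1 at 8 µM and 48 h, and 3 and 1 at 200 µM and 48 h. Among 6 inhibitors and growth-arrest genes 2 rose and 3 fell, 1 and 3, 1 and 2, and 1 and 3, in the same order. Of 10 S phase genes 1, 2, 3 and 4 rose and 0 fell. Of 13 mitosis genes 1 rose and 1 fell, 2 and 1, 3 and 3, and 2 and 1. With 48 h vehicle replicate 4 left out, mitosis had 4 higher and 1 lower at 8 µM and 48 h and 2 higher at 8 µM and 24 h. G1 then had 5 higher at 200 µM and 24 h and 4 higher at 200 µM and 48 h. S phase had 2 and 3 higher at 24 h, and the inhibitors had 3 lower at 8 µM and 48 h. For all genes, with that array, the shares that rose were 11.1%, 11.6%, 16.7% and 16.8%, and those that fell 13.8%, 13.1%, 18.9% and 17.1%. Spc24 and Pcna rose in all 4 comparisons, and Myc, Cdkn1a, Gadd45b and Diaph3 fell in all 4. Rb1, Cdk2, Rrm1 and Cdc20 also rose in all 4, and Cdkn1b also fell in all 4, when 48 h vehicle replicate 4 was left out. With all arrays 7.26% of all genes rose in all 4 and 7.44% fell in all 4. On the same arrays another 15 of the 40 were called in 1 to 3 comparisons, none of them in both directions. Of the 40, 19 were called in none, where 51.1% of all genes were called in none. The shares of all genes called in all 4 without 48 h vehicle replicate 4 are not given here.

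**Figure D2:**
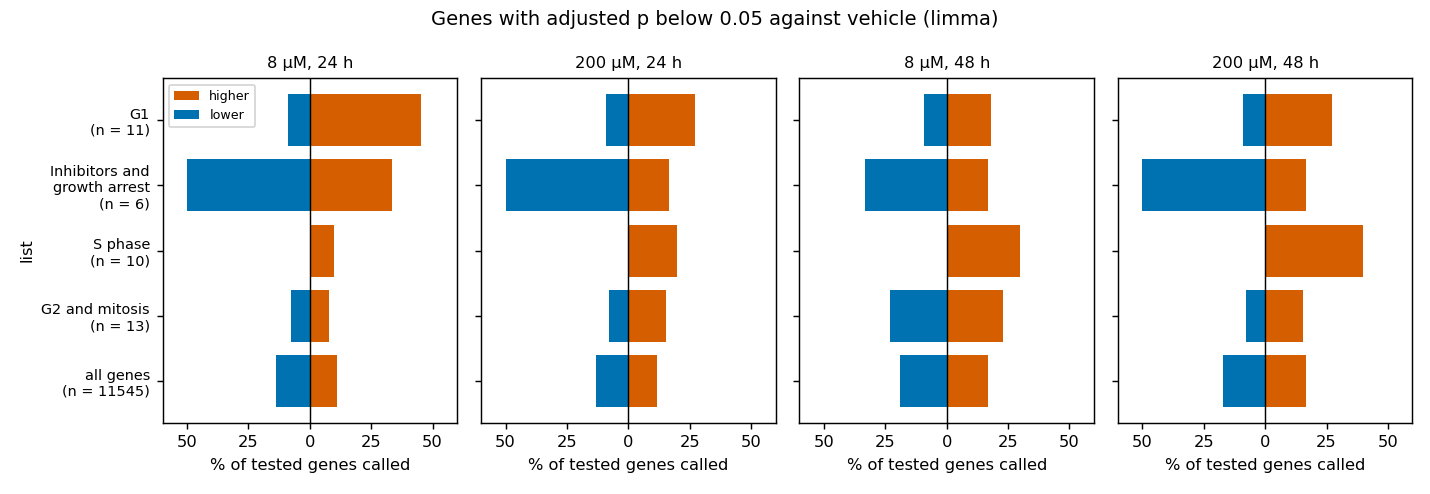
Percent of tested genes that rose (right) or fell (left) against vehicle, for the 4 classes and for all 11545 genes, with 1 panel per dose and time. No S phase gene was called lower in any panel, and the bars for G1 and the inhibitors are widest at 24 h and 8 µM, where 6 of 11 and 5 of 6 genes were called.

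**Figure D3:**
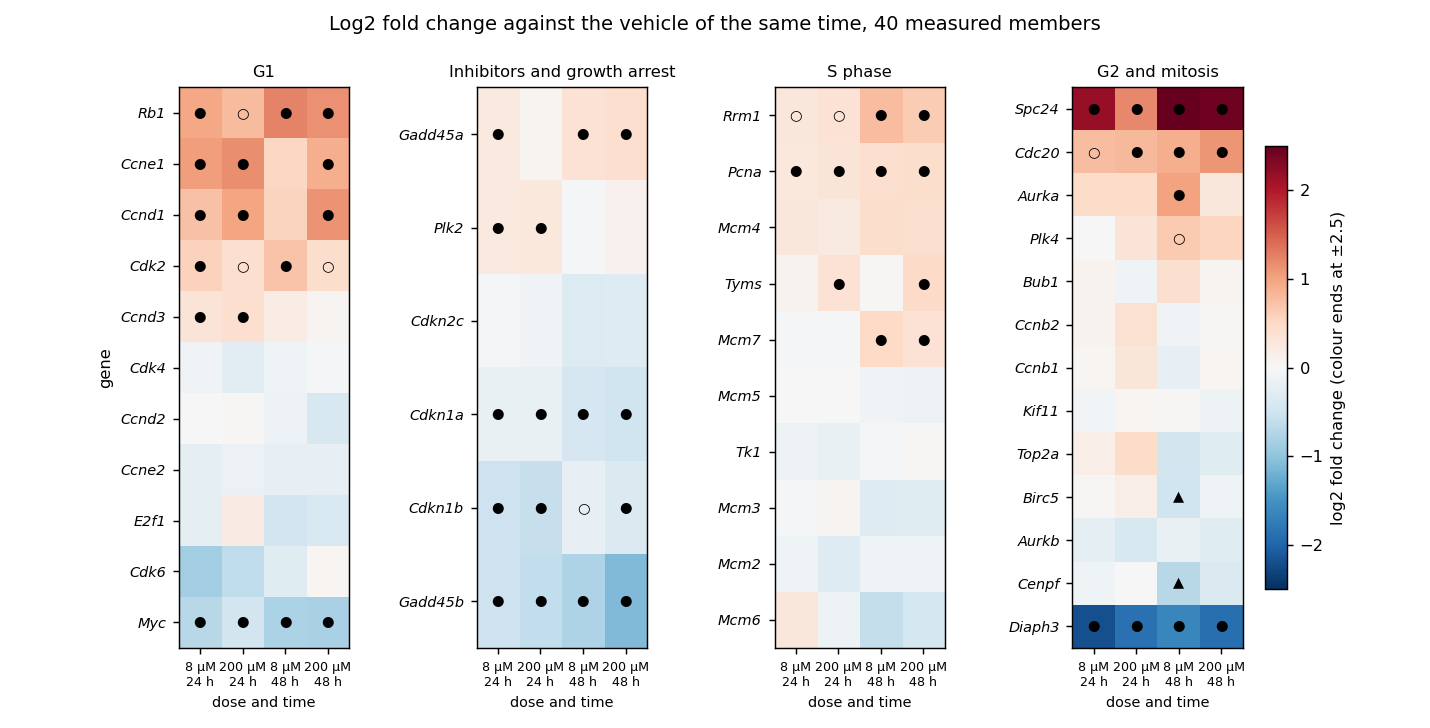
Log2 fold change against vehicle (colour) of the 40 tested genes, in 4 columns for dose and time. Filled circles mark calls made with and without 48 h vehicle replicate 4, triangles calls made only with it (Birc5 and Cenpf), and open circles calls made only without it. Colours end at 2.5 in either direction, and Spc24 holds the highest and Diaph3 the lowest value of every column.

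In G1 the agonist lowered Myc and raised cyclins D1 and E1 and Rb1. Myc is a transcription factor that promotes growth and cell cycle entry. In replicate order from 1 to 5, which holds for all lists of values here, Myc gave signals of 5196, 4519.8, 5378, 5037 and 4946 in 24 h vehicle wells, 3071, 3069, 3298, 2952 and 3039 at 8 µM and 3462, 3455, 3651, 4109 and 3470.2 at 200 µM. For Myc at 48 h, vehicle wells read 6117, 5964, 6208, 3205 and 5666, 8 µM wells 3108, 2806, 3097, 2881 and 3278 and 200 µM wells 3532, 3086, 2504, 2997 and 2912. Every treated well lay below every vehicle well except for 48 h vehicle replicate 4, which lay among the treated wells. Myc fell, with log2 fold changes of -0.70 ± 0.11 at 8 µM and 24 h (adjusted p = 1.1e-05) and -0.47 ± 0.11 at 200 µM (adjusted p = 0.0021). At 48 h it fell, with log2 fold changes of -0.80 ± 0.11 (adjusted p = 7.5e-07) and -0.82 ± 0.11 (adjusted p = 5.6e-07), with -0.98 at 8 µM without that array.

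Ccnd1 encodes cyclin D1, the mitogen-sensing partner of CDK4 and CDK6. Ccnd1 gave 512, 489, 805, 566 and 835 in 24 h vehicle wells, 1275, 1082, 851, 930.4 and 1202 at 8 µM and 1021, 1250.3, 1612, 1317 and 1145 at 200 µM. For Ccnd1 at 48 h, vehicle wells read 718, 731, 777, 200.1 and 746, 8 µM wells 577, 1001, 1021, 1018 and 756 and 200 µM wells 1223, 1291, 1507, 1164 and 1171. All wells at 200 µM were above all vehicle wells at both times, whereas at 8 µM this held at 24 h only, and vehicle replicate 4 was the lowest of all 30. Cyclin D1 rose by 0.74 ± 0.24 at 8 µM (adjusted p = 0.021) and 0.99 ± 0.24 at 200 µM (adjusted p = 0.0021) at 24 h, and by 1.12 ± 0.24 at 200 µM and 48 h (adjusted p = 3.9e-04). At 8 µM and 48 h it was at 0.56 (adjusted p = 0.07). Without that array the 48 h values were 0.76 (adjusted p = 4.4e-04) at 200 µM and 0.20 (adjusted p = 0.39) at 8 µM. The 24 h call at 8 µM was lost without vehicle replicate 1 or 2 or treated replicate 1 or 5 (adjusted p = 0.050 to 0.063). Of its other 2 probe sets, one rose at 24 h only, by 1.81 and 2.42 (adjusted p = 1.1e-04 and 1.2e-06), and the other at 8 µM and 48 h only, by 1.72 (adjusted p = 0.024).

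Rb1 encodes the pocket protein that keeps E2F factors inactive until G1 kinases phosphorylate it. Rb1 gave 399, 369, 291, 327 and 530.2 in 24 h vehicle wells, 837, 725, 732, 778 and 708 at 8 µM and 496, 727, 753, 886 and 532 at 200 µM. For Rb1 at 48 h, vehicle wells read 242, 343, 602, 71.4 and 292, 8 µM wells 627, 825, 339, 663 and 870.1 and 200 µM wells 547, 636, 551, 682 and 534. The groups were apart at 8 µM and 24 h and overlapped in the other 3 comparisons. Rb1 rose by 0.98 ± 0.30 at 8 µM and 24 h (adjusted p = 0.014), by 1.24 ± 0.30 at 8 µM and 48 h (adjusted p = 0.0013) and by 1.14 ± 0.30 at 200 µM and 48 h (adjusted p = 0.0032). At 200 µM and 24 h it was at 0.79 (adjusted p = 0.051). Without 48 h vehicle replicate 4, its lowest array, Rb1 was called in all 4, with 0.83 and 0.73 at 48 h. With all arrays, its 48 h call at 200 µM was lost in a fit of only the groups compared (adjusted p = 0.054).

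Cyclin E1 (Ccne1) is the partner of CDK2 at the entry into S phase. Ccne1 gave 290.2, 309.7, 212, 323 and 80.2 in 24 h vehicle wells, 519.6, 527, 304, 487 and 570.4 at 8 µM and 404, 748, 478, 494 and 492 at 200 µM. For Ccne1 at 48 h, vehicle wells read 359, 307, 240.0, 346 and 152, 8 µM wells 556, 288, 390.1, 275 and 519 and 200 µM wells 518, 645, 764, 344 and 432. Only the 200 µM wells at 24 h were all above vehicle. Cyclin E1 rose by 1.04 ± 0.30 (adjusted p = 0.0075) and 1.16 ± 0.30 (adjusted p = 0.0031) at 24 h and by 0.91 ± 0.30 at 200 µM and 48 h (adjusted p = 0.016), and was at 0.51 at 8 µM and 48 h (adjusted p = 0.19). The 48 h call was lost without vehicle replicate 5 (adjusted p = 0.063) or treated replicate 3 (adjusted p = 0.057).

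Cdk2 and Ccnd3 were the other G1 genes called. The kinase Cdk2 rose at 8 µM, by 0.58 ± 0.19 at 24 h (adjusted p = 0.026) and 0.71 ± 0.19 at 48 h (adjusted p = 0.0042). At 200 µM it was at 0.43 (adjusted p = 0.11) and 0.43 (adjusted p = 0.086), and both passed without 48 h vehicle replicate 4 (adjusted p = 0.045 and 0.0037). Its 24 h call at 8 µM was lost without vehicle replicate 1 or 3 or treated replicate 4 or 5 (adjusted p = 0.055 to 0.099). The 48 h call at 8 µM was lost in a fit of only the groups compared (adjusted p = 0.070). Its other probe set rose in 3 of the 4 comparisons, by 0.81 at 8 µM and 24 h and by 1.30 and 0.92 at 48 h. Cyclin D3 (Ccnd3) rose at 24 h, by 0.32 ± 0.12 (adjusted p = 0.047) and 0.42 ± 0.12 (adjusted p = 0.0081), the first a call lost without any 1 of 18 arrays (adjusted p = 0.051 to 0.16). The 5 G1 genes not called in any comparison were cyclins D2 and E2, the kinases Cdk4 and Cdk6 and the factor E2f1, with log2 fold changes from -0.86 to 0.20 and a lowest adjusted p of 0.086.

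**Figure D4:**
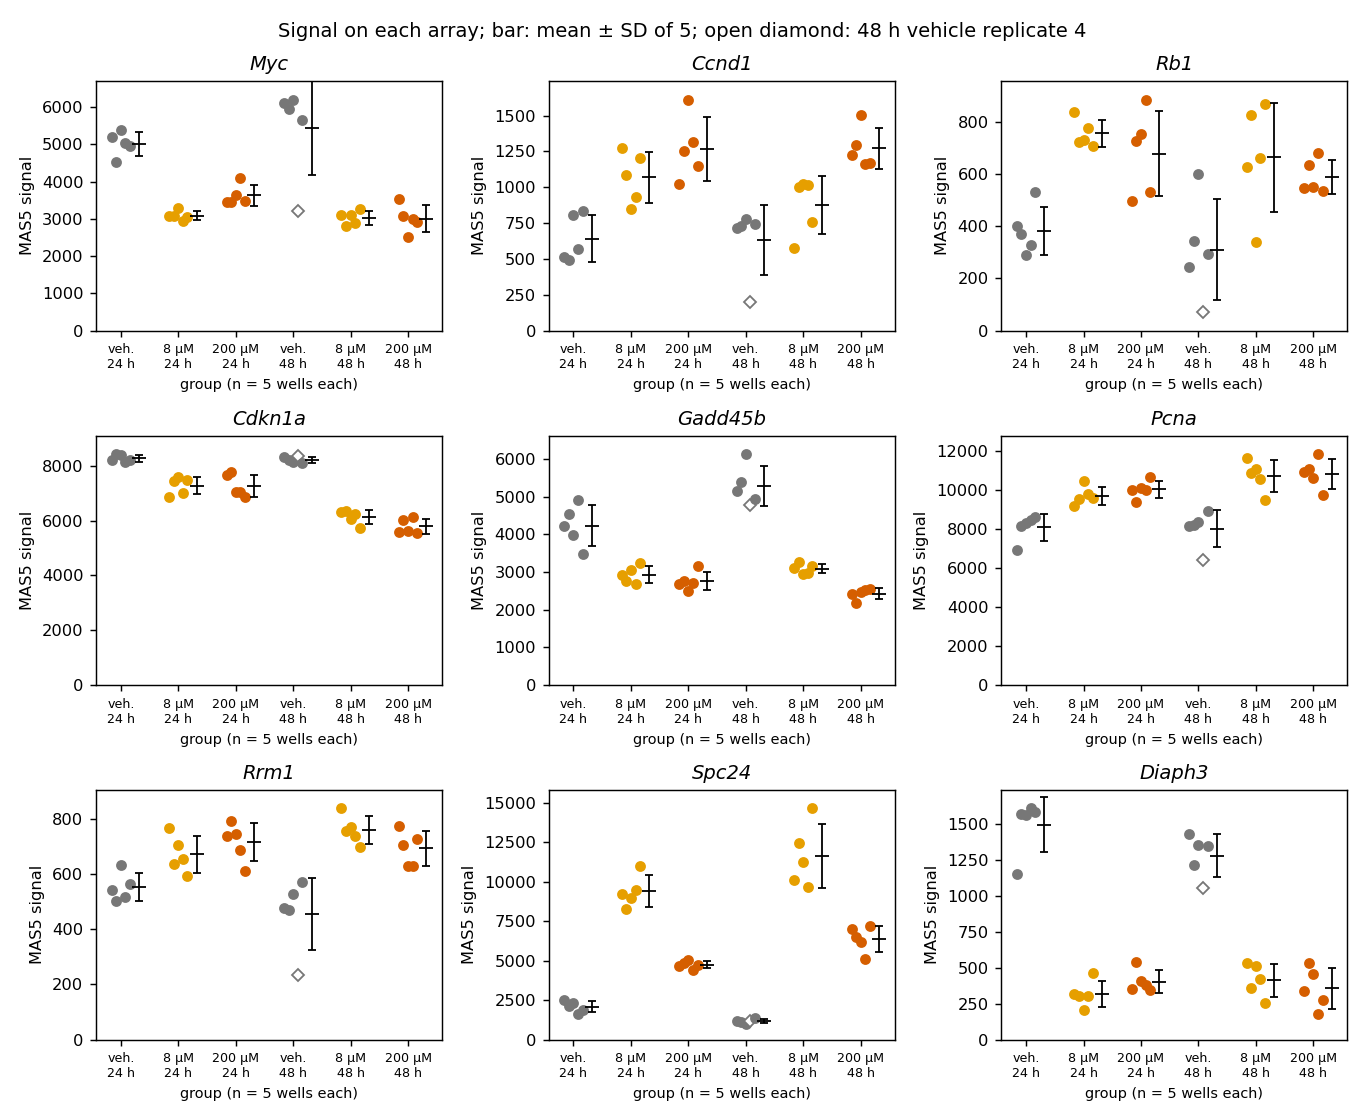
Signal on each array for 9 of the genes, by group, with mean ± SD of the 5 wells; each vertical axis starts at 0. Treated wells are apart from vehicle wells at both times for Cdkn1a, Gadd45b, Pcna, Spc24 and Diaph3, and the open diamond of 48 h vehicle replicate 4 is the lowest of the 10 vehicle points for Myc, Ccnd1, Rb1, Pcna, Rrm1 and Diaph3.

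Among the inhibitors and growth-arrest genes, those of p21, p27 and Gadd45b fell and Gadd45a and Plk2 rose. Gadd45b is a small stress-induced protein that binds and regulates stress kinases. Gadd45b gave 4230.0, 4547, 3993, 4909 and 3480.4 in 24 h vehicle wells, 2919, 2772, 3041, 2688 and 3236 at 8 µM and 2674, 2772, 2505, 2711 and 3147 at 200 µM. For Gadd45b at 48 h, vehicle wells read 5138, 5387, 6132, 4779 and 4933, 8 µM wells 3096, 3276, 2956, 2979.8 and 3152 and 200 µM wells 2426, 2171, 2468, 2525 and 2546. No treated well reached any vehicle well of its time, and at 48 h no 200 µM well reached any 8 µM well. Gadd45b fell, with log2 fold changes of -0.52 ± 0.08 (adjusted p = 3.5e-06) and -0.61 ± 0.08 (adjusted p = 2.7e-07) at 24 h. At 48 h it fell, with log2 fold changes of -0.76 ± 0.08 (adjusted p = 1.5e-09) at 8 µM and -1.11 ± 0.08 (adjusted p = 2.4e-13) at 200 µM.

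Cdkn1a encodes p21, the CDK inhibitor best known as a target of p53. Cdkn1a gave 8197, 8434, 8393, 8143 and 8228 in 24 h vehicle wells, 6868, 7447, 7607, 7013 and 7476 at 8 µM and 7649.7, 7769, 7047, 7049 and 6880.3 at 200 µM. For Cdkn1a at 48 h, vehicle wells read 8312, 8201, 8149.6, 8353 and 8099.9, 8 µM wells 6301, 6369.8, 6075, 6237 and 5725 and 200 µM wells 5587, 6032, 5619, 6139 and 5564. The 10 vehicle wells lay within a narrow band, from 8099.9 to 8434, and all 20 treated wells were below it. Cdkn1a fell, with log2 fold changes of -0.19 ± 0.05 (adjusted p = 0.0028) and -0.19 ± 0.05 (adjusted p = 0.0028) at 24 h and -0.42 ± 0.05 (adjusted p = 7.2e-09) and -0.51 ± 0.05 (adjusted p = 1.4e-10) at 48 h. Its other probe set was at -0.23, -0.08, -0.27 and -0.24 and was not called in any of the 4 (adjusted p = 0.16, 0.73, 0.071 and 0.11).

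Cdkn1b encodes p27, which keeps quiescent cells out of the cycle. Cdkn1b gave 11273, 12243, 11441, 13057 and 11411 in 24 h vehicle wells, 8474, 7892, 8361, 8072 and 8607 at 8 µM and 7895, 7791, 7446, 8111 and 8713 at 200 µM. For Cdkn1b at 48 h, vehicle wells read 11899, 10339, 11472, 6534 and 12092, 8 µM wells 9262, 8897, 9515, 8762 and 7956 and 200 µM wells 8374, 8643, 7155, 8579 and 7122. Treated wells were below all vehicle wells at both times, but for vehicle replicate 4 at 48 h, which was the lowest well of its time. Cdkn1b fell, with log2 fold changes of -0.52 ± 0.10 (adjusted p = 1.7e-04) and -0.57 ± 0.10 (adjusted p = 4.7e-05) at 24 h and -0.36 ± 0.10 at 200 µM and 48 h (adjusted p = 0.0056). At 8 µM and 48 h it was at -0.21 (adjusted p = 0.12), and at -0.37 without that array (adjusted p = 2.2e-05). With all arrays, the 48 h call at 200 µM was lost in a fit of only the groups compared (adjusted p = 0.088).

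Gadd45a, a relative of Gadd45b that is induced by DNA damage, moved the other way. Gadd45a gave 11643, 10509, 12915, 10587 and 12678 in 24 h vehicle wells, 12854, 14733, 13599.7, 13023 and 15170.1 at 8 µM and 11998, 12733, 12309.7, 11153 and 12484 at 200 µM. For Gadd45a at 48 h, vehicle wells read 10003, 10098, 10106, 7570.1 and 10782, 8 µM wells 13422, 12952, 11764, 11691 and 12034 and 200 µM wells 14154, 11951, 12980.4, 13142 and 12472. The groups overlapped at 24 h and were apart at 48 h. Gadd45a rose by 0.25 ± 0.08 at 8 µM and 24 h (adjusted p = 0.012) and by 0.36 ± 0.08 (adjusted p = 3.2e-04) and 0.42 ± 0.08 (adjusted p = 3.9e-05) at 48 h, and was at 0.06 at 200 µM and 24 h (adjusted p = 0.65). Plk2, a stress-induced polo kinase, rose at 24 h by 0.24 ± 0.06 (adjusted p = 0.0015) and 0.27 ± 0.06 (adjusted p = 4.6e-04) and was at -0.02 and 0.11 at 48 h. Cdkn2c, which encodes the CDK4 and CDK6 inhibitor p18, was not called, at -0.33 to -0.05, though its other probe set rose at 8 µM and 24 h (0.38, adjusted p = 0.027).

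Promoter sequences, which the choice of genes did not use, were read from RefSeq (GRCr8) for 37 of the 48, as windows of 300 bases from 250 before the transcription start to 50 after it. Searched on both strands were the CCAAT box (CCAAT), the cell cycle homology region (TTTGAA or TTCGAA), E2F letters (TTTCCCGC, TTTGGCGC, TTTCGCGC or TTTGCCGC) and the E-box (CACGTG), and matches of different motifs may overlap. A match is a description, not a site or a cause. A CCAAT box stood in 25 of the 37, 67.6%, against 38.4% of 18999 protein-coding promoters. The cell cycle homology region stood in 11 of 17 mitosis promoters (64.7%), 3 of 9 S phase promoters and 0 of 11 others, against 18.5% of all. E2F letters stood in 6 of 9 S phase promoters (66.7%) and 1 of 17 mitosis promoters (5.88%), against 2.82% of all. The E-box stood in 3 of 37 (8.11%), against 7.26% of all.

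The 250 bases before the start are shown for 4 genes of S phase and mitosis. These are Spc24 and Diaph3, the largest rise and the largest fall, and, as examples, Mcm7, which rose at 48 h, and Cdc20. All 4 lie on the minus strand and are written 5′ to 3′ with matches in capitals: Spc24 at chr8:28581300-28581549, Diaph3 at chr15:69421553-69421802, Mcm7 at chr12:22163179-22163428 and Cdc20 at chr5:137255800-137256049. ATTGG is the CCAAT box read on the other strand.
Spc24: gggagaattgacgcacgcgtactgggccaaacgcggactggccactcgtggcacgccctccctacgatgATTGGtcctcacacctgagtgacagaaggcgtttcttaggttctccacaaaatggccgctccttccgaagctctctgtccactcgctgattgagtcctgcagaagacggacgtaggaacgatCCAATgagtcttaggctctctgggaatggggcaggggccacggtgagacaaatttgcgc
Diaph3: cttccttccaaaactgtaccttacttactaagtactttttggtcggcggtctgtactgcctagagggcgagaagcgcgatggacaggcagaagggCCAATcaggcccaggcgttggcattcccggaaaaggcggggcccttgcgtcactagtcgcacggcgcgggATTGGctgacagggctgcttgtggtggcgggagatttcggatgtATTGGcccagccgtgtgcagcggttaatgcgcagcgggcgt
Mcm7: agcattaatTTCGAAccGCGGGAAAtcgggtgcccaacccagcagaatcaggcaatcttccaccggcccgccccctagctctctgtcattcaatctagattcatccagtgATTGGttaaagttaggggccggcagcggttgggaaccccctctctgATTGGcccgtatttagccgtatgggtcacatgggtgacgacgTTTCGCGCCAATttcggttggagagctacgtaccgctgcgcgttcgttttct
Cdc20: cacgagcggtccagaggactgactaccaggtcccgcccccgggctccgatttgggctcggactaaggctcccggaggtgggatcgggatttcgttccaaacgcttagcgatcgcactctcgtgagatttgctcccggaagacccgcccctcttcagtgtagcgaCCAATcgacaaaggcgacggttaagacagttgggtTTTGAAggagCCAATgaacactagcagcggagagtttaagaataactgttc

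Spc24 rose and Diaph3 fell in all 4 comparisons, and both windows hold CCAAT boxes, 2 and 3, and no cell cycle homology region or E2F letters. Mcm7 holds all 3 kinds, with 2 E2F matches, one of which overlaps a CCAAT box. Cdc20 holds 2 CCAAT boxes and 1 cell cycle homology region. The windows shown do not stand for all genes that rose. Pcna and Rrm1, each with a larger moderated t than Mcm7, hold no E2F letters.

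In S phase, Pcna, Rrm1, Mcm7 and Tyms rose and the other 6 genes were not called. Pcna is the sliding clamp that holds DNA polymerases on their template. Pcna gave 6910.3, 8142, 8302, 8489 and 8619 in 24 h vehicle wells, 9203, 9549, 10446, 9776 and 9589 at 8 µM and 10019, 9377, 10115, 10017 and 10658 at 200 µM. For Pcna at 48 h, vehicle wells read 8182, 8189, 8379, 6396 and 8924, 8 µM wells 11628, 10862, 11099, 10550.4 and 9472 and 200 µM wells 10951, 11070.0, 10608, 11853 and 9739. Every treated well was above every vehicle well of its time. Pcna rose by 0.27 ± 0.07 (adjusted p = 0.0056) and 0.31 ± 0.07 (adjusted p = 0.0012) at 24 h and by 0.42 ± 0.07 (adjusted p = 1.6e-05) and 0.44 ± 0.07 (adjusted p = 9.8e-06) at 48 h, increases of the mean signal of 1.20 to 1.35-fold.

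Rrm1 is the large subunit of ribonucleotide reductase, which makes deoxynucleotides. Rrm1 gave 543, 505, 633, 519 and 565 in 24 h vehicle wells, 768, 638, 707, 655 and 594 at 8 µM and 739, 792, 746, 688 and 612 at 200 µM. For Rrm1 at 48 h, vehicle wells read 478, 472, 528, 235 and 571, 8 µM wells 839, 755, 773, 739.7 and 700.2 and 200 µM wells 775, 704, 632, 631 and 728. The groups overlapped at 24 h and were apart at 48 h, with vehicle replicate 4 the lowest of all. Rrm1 rose at 48 h, by 0.77 ± 0.16 (adjusted p = 1.5e-04) and 0.64 ± 0.16 (adjusted p = 0.0014), and was at 0.27 (adjusted p = 0.23) and 0.36 (adjusted p = 0.09) at 24 h. Without that array all 4 were called, at 0.27, 0.36, 0.56 and 0.43. With all arrays, the 48 h call at 200 µM was lost in a fit of only the groups compared (adjusted p = 0.056).

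Mcm7 belongs to the ring of 6 Mcm proteins that unwinds DNA at replication forks. Mcm7 gave 1193, 1517, 1254, 1172 and 1468 in 24 h vehicle wells, 1267, 1220.0, 1097, 1398 and 1349 at 8 µM and 1303, 1465, 1139.7, 1264 and 1299.7 at 200 µM. For Mcm7 at 48 h, vehicle wells read 1024, 1199.5, 996, 1297 and 1117, 8 µM wells 1571, 1261, 1791, 1721 and 1642 and 200 µM wells 1515, 1451, 1556, 1529.5 and 1189.6. There was no separation at 24 h, and at 48 h 1 well of each dose lay within the range of vehicle. Mcm7 rose at 48 h, by 0.49 ± 0.10 (adjusted p = 2.9e-04) and 0.36 ± 0.10 (adjusted p = 0.0075), and was at -0.06 and -0.03 at 24 h. The other ring subunits, Mcm2 to Mcm6, were not called, with log2 fold changes from -0.61 to 0.44, so a rise of the ring as a whole was not seen.

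Tyms makes the thymidylate needed for DNA. Tyms gave 649, 588, 804, 827 and 518 in 24 h vehicle wells, 599, 659, 835, 736 and 728 at 8 µM and 809, 861, 694, 1024 and 981 at 200 µM. For Tyms at 48 h, vehicle wells read 819, 761, 729, 989.6 and 563, 8 µM wells 805, 751, 732, 823 and 784 and 200 µM wells 1040.2, 1002, 1134, 1187 and 989. At 48 h and 200 µM all wells but replicate 5 were above all vehicle wells. Tyms rose at 200 µM, by 0.37 ± 0.14 at 24 h (adjusted p = 0.048), a call lost without any 1 of 23 arrays (adjusted p = 0.051 to 0.17), and by 0.48 ± 0.14 at 48 h (adjusted p = 0.0063). At 8 µM it was at 0.08 and 0.03. Thymidine kinase (Tk1) was not called by the probe set used, at -0.04 and 0.03 at 48 h, while another of its 3 rose by 0.44 and 0.35 (adjusted p = 0.008 and 0.04).

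In G2 and mitosis 7 of 13 genes were not called, and the others included Spc24 and Diaph3, with the largest rise and the largest fall of the 40 in every comparison with vehicle. Spc24 is a subunit of the Ndc80 complex, by which kinetochores hold microtubules. Spc24 gave 2482, 2121, 2284, 1605 and 1859 in 24 h vehicle wells, 9223, 8264, 8989, 9444 and 10999 at 8 µM and 4657, 4829, 5044, 4414 and 4714 at 200 µM. For Spc24 at 48 h, vehicle wells read 1164, 1109, 992, 1202 and 1385, 8 µM wells 10098, 12465, 11252, 9672 and 14636 and 200 µM wells 6969, 6500.0, 6161, 5095 and 7207. At each time the 3 groups stood apart, every treated well above every vehicle well and every 8 µM well above every 200 µM well. Its promoter window, shown with that of Mcm7, holds a pair of CCAAT boxes and none of the other motifs searched. The mean rose 4.53-fold and 2.29-fold at 24 h and 9.93-fold and 5.46-fold at 48 h. On the log2 scale these were 2.18 ± 0.11 (adjusted p = 3.4e-17), 1.20 ± 0.11 (adjusted p = 1.6e-10), 3.29 ± 0.11 (adjusted p = 3.5e-22) and 2.43 ± 0.11 (adjusted p = 1.7e-18). Among all 11545 genes the rise at 8 µM and 48 h ranked 13. The 200 µM wells were lower than the 8 µM wells, with log2 differences of -0.98 ± 0.11 at 24 h (adjusted p = 5.3e-07) and -0.86 ± 0.11 at 48 h (adjusted p = 2.4e-06).

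Spc24 has 1 probe set, so no second probe set could be set beside it. In the rat assembly GRCr8 Kank2 lies next to it on the same strand, a gene chosen after these values were seen. Of its 3 probe sets only the one used for the gene is given, and the neighbour on the other side of Spc24 was not examined. Kank2, a regulator of the cytoskeleton, had mean signals of 1766 ± 177, 2291 ± 257 and 1746 ± 133 (SD, n = 5) at 24 h in vehicle, 8 µM and 200 µM wells. At 48 h Kank2 was at 1610.0 ± 155, 2498 ± 143 and 2162 ± 137. Kank2 rose by 0.37 (adjusted p = 7.2e-04) at 8 µM and 24 h, by 0.63 (adjusted p = 1.5e-07) at 8 µM and 48 h and by 0.43 (adjusted p = 1.1e-04) at 200 µM and 48 h, and was at -0.01 (adjusted p = 0.94) at 200 µM and 24 h.

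Diaph3 is a formin that builds actin filaments and takes part in cytokinesis. Diaph3 gave 1149, 1569, 1562, 1605 and 1578 in 24 h vehicle wells, 319, 302, 208, 304 and 459.8 at 8 µM and 353, 537, 403, 376 and 344 at 200 µM. For Diaph3 at 48 h, vehicle wells read 1430.1, 1213, 1349, 1052 and 1343, 8 µM wells 529, 355, 511, 418 and 251 and 200 µM wells 339, 534, 454, 176 and 272. No treated well exceeded 537, and no vehicle well was below 1052. The vehicle mean was 4.68 and 3.71 times the treated mean at 24 h and 3.10 and 3.60 times at 48 h. Diaph3 fell, with log2 fold changes of -2.20 ± 0.22 (adjusted p = 1.3e-09) and -1.86 ± 0.22 (adjusted p = 5.5e-08) at 24 h and -1.63 ± 0.22 (adjusted p = 4.0e-07) and -1.89 ± 0.22 (adjusted p = 2.8e-08) at 48 h. No difference between doses was called (adjusted p = 0.61 and 0.70).

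Cdc20 activates the ubiquitin ligase that starts anaphase. Cdc20 gave 85.9, 288, 325, 141 and 354 in 24 h vehicle wells, 337, 319.5, 332, 555 and 370.4 at 8 µM and 413, 528, 431, 255 and 351 at 200 µM. For Cdc20 at 48 h, vehicle wells read 276, 288, 137, 495 and 226, 8 µM wells 424, 578, 587, 479.6 and 500.5 and 200 µM wells 335, 712, 614, 617 and 717. The groups overlapped at 24 h, and at 48 h only through vehicle replicate 4. Cdc20 rose by 0.92 ± 0.31 (adjusted p = 0.018) and 1.10 ± 0.31 (adjusted p = 0.005) at 48 h and by 0.82 ± 0.31 at 200 µM and 24 h (adjusted p = 0.048), a call lost without any 1 of 22 arrays (adjusted p = 0.051 to 0.22), and was at 0.78 at 8 µM and 24 h (adjusted p = 0.061), which passed without 48 h vehicle replicate 4 (adjusted p = 0.034). The 48 h call at 8 µM was lost without vehicle replicate 3 (adjusted p = 0.076). The other of its 5 probe sets that passed the filter was at 0.14, 0.19, -0.78 and 0.00 and was not called (adjusted p = 0.083 to 1.0), and with the mean of both neither 48 h change was called (0.07 and 0.55, adjusted p = 0.85 and 0.083).

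Aurora A (Aurka) is a kinase of the spindle poles. Aurka gave 240.5, 269.8, 154, 400.3 and 248 in 24 h vehicle wells, 349, 356, 286, 430.2 and 361 at 8 µM and 354, 260.3, 357, 412 and 392 at 200 µM. For Aurka at 48 h, vehicle wells read 58.5, 335, 185, 269 and 243, 8 µM wells 378, 391, 439.5, 422 and 394 and 200 µM wells 403, 379.7, 111, 109 and 367. Only the 8 µM wells at 48 h were all above vehicle, and 2 wells at 200 µM and 1 of vehicle were far below the rest of that time. Aurka rose at 8 µM and 48 h, by 1.01 ± 0.35 (adjusted p = 0.021), a call lost without vehicle replicate 1 (0.64, adjusted p = 0.11) and in a fit of only the groups compared (adjusted p = 0.068). In the same comparison the kinetochore protein Cenpf fell by 0.70 ± 0.26 (adjusted p = 0.036) and survivin (Birc5), of the chromosomal passenger complex, fell by 0.50 ± 0.20 (adjusted p = 0.047). Each was lost without several single arrays, 4 for Cenpf and 20 for Birc5, and both without 48 h vehicle replicate 4 (-0.34, adjusted p = 0.19, and -0.31, adjusted p = 0.20). The other 7 tested, cyclins B1 and B2, Aurkb, Bub1, Kif11, Plk4 and Top2a, were not called in any of the 4 comparisons, with log2 fold changes from -0.46 to 0.65. The highest was that of Plk4, a kinase of centriole duplication, at 8 µM and 48 h (adjusted p = 0.065), which passed without 48 h vehicle replicate 4, at 0.76 (adjusted p = 0.031).

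The doses were compared with each other at each time. At 24 h 1 of the 40 genes differed, where 3.02% of all genes were called, and at 48 h 2 differed, where 4.79% were called. Spc24 was lower at 200 µM than at 8 µM at both times, with means of 4732 ± 231 against 9384 ± 1006 (SD, n = 5) at 24 h and 6387 ± 828 against 11625 ± 2003 at 48 h. Gadd45b was lower at 200 µM at 48 h, with a log2 difference of -0.35 ± 0.08 (adjusted p = 0.0063), with means of 2427 ± 151 against 3092 ± 131. Its difference at 24 h was -0.09 ± 0.08 (adjusted p = 0.79). Without 48 h vehicle replicate 4, where 5.86% of all genes differed at 24 h and 8.98% at 48 h, Myc was higher at 200 µM at 24 h (adjusted p = 0.037), and Ccnd1 (adjusted p = 0.019) and Tyms (adjusted p = 0.019) were higher at 200 µM at 48 h.

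Whether a dose's effect changed from 24 h to 48 h was tested as the difference of the 2 fold changes. At 8 µM 2 of the 40 effects became more positive and 1 more negative, beside 1.67% and 1.23% of all genes, and at 200 µM 1 and 2, beside 1.3% and 1.11%. The effect on Spc24 grew by 1.10 ± 0.16 (adjusted p = 2.3e-05) at 8 µM and 1.23 ± 0.16 (adjusted p = 4.1e-06) at 200 µM. In the vehicle wells themselves Spc24 fell by 0.81 ± 0.11 from 24 h to 48 h (adjusted p = 4.0e-06). The effect on Cdkn1a became more negative, by -0.24 ± 0.07 (adjusted p = 0.047) at 8 µM, a call lost without any 1 of 22 arrays (adjusted p = 0.050 to 0.093), and by -0.32 ± 0.07 (adjusted p = 0.0049) at 200 µM, while its vehicle wells differed by -0.01 (adjusted p = 0.93). The effect on Gadd45b at 200 µM became more negative, by -0.50 ± 0.11 (adjusted p = 0.0092). The effect on Mcm7 at 8 µM rose by 0.55 ± 0.15 (adjusted p = 0.033), and this call was lost without any 1 of 10 arrays (adjusted p = 0.052 to 0.072). The effect on Myc at 200 µM became more negative, by -0.53 (adjusted p = 9.2e-04), and so did that on Plk2 at 8 µM, by -0.26 (adjusted p = 0.048) when 48 h vehicle replicate 4 was left out. Median centring ended the time calls of Cdkn1a, Gadd45b and Mcm7 and the dose call of Gadd45b, but not those of Spc24, and with 48 h vehicle replicate 4 left out it ended only that of Cdkn1a at 8 µM.

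In vehicle wells alone, 2 of the 40 genes rose and 2 fell from 24 h to 48 h, beside 4.46% and 5.4% of all genes. Gadd45b rose by 0.32 ± 0.08 (adjusted p = 0.0076) and Plk2 by 0.35 ± 0.06 (adjusted p = 4.9e-05). Both calls were lost under median centring (adjusted p = 0.52 and 0.40). Spc24 fell as given, and Gadd45a fell by 0.27 ± 0.08 (adjusted p = 0.02), a call lost without any 1 of 3 arrays, among them 48 h vehicle replicate 4 (-0.18, adjusted p = 0.062). Without that array, where 6.04% of all genes rose, Myc rose by 0.26 (adjusted p = 0.017). With all arrays, the Gadd45a call was lost under median centring too (adjusted p = 0.20). In fits of only the groups compared the calls of Gadd45a and Gadd45b were lost (adjusted p = 0.21 and 0.11).

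Other genes of the same pathways, from lists written by name with earlier results of these data known, were set beside the 40. Of 33 tested genes of replication and DNA synthesis, 6 rose and 1 fell at 8 µM and 24 h, 9 and 1 at 200 µM and 24 h, 9 and 1 at 8 µM and 48 h, and 9 and 0 at 200 µM and 48 h. Their shares called, 21.2%, 30.3%, 30.3% and 27.3%, stand beside 24.9%, 24.7%, 35.6% and 33.8% of all genes, and their medians were 0.22, 0.19, 0.23 and 0.17. In the absence of 48 h vehicle replicate 4, 9, 12, 11 and 12 rose and 1 fell in each comparison. Without that array 13.7%, 14.6%, 16.8% and 17.2% of all genes rose and 17.1%, 16.3%, 20.2% and 18.8% fell. Ung, which removes uracil from DNA, rose by 1.12 ± 0.14, 1.37 ± 0.14, 0.88 ± 0.14 and 1.13 ± 0.14 (adjusted p from 3.1e-09 to 8.4e-06). Slbp, which binds the ends of histone messages, rose by 0.69, 0.61, 0.48 and 0.77. Rpa3, a subunit of the protein that coats single-stranded DNA, rose by 0.22 and 0.28 at 24 h and 0.72 and 0.65 at 48 h.

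Of 18 tested genes of CDK inhibition, p53 response and arrest, 3 rose and 6 fell, 4 and 4, 5 and 6, and 6 and 5 in the 4 comparisons, or 50%, 44.4%, 61.1% and 61.1% of them, beside 24.9%, 24.7%, 35.6% and 33.8% of all genes. Sesn1, a stress-induced restrainer of growth signalling, fell, with log2 fold changes of -1.65 ± 0.09, -1.12 ± 0.09, -1.60 ± 0.09 and -1.28 ± 0.09 (adjusted p from 1.5e-16 to 3.8e-12). Bbc3, which encodes the p53 target Puma, fell, with log2 fold changes of -0.74, -0.51, -0.74 and -0.73. Tob1, an antiproliferative factor, rose by 0.48, 0.36, 0.63 and 0.54. Of 21 further G1 genes 3 rose and 4 fell, 4 and 1, 3 and 5, and 3 and 4, shares of 33.3%, 23.8%, 38.1% and 33.3% beside the same background. Cdc25a, the phosphatase that activates CDK2, rose by 0.84 ± 0.10, 0.90 ± 0.10, 0.77 ± 0.10 and 0.73 ± 0.10 (adjusted p from 2.4e-08 to 8.6e-07). Cyclin G2 (Ccng2), which is linked to cell cycle arrest, rose as well, by 0.44, 0.54, 0.72 and 0.69. Cks2, a small subunit of CDK complexes, rose by 0.42, 0.23 and 0.51 and was at 0.08 at 200 µM and 48 h (adjusted p = 0.46).

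Of 30 further mitosis genes 2 rose and 1 fell, 2 and 2, 3 and 3, and 1 and 3, shares below the background of each comparison. These counts were 3 and 1, 3 and 2, 5 and 2, and 3 and 3 without 48 h vehicle replicate 4. Without that array 13.7%, 14.6%, 16.8% and 17.2% of all genes rose and 17.1%, 16.3%, 20.2% and 18.8% fell. Cenpn, a kinetochore protein, was at 0.12 and 0.26 at 24 h and rose by 0.66 (adjusted p = 0.0012) and 0.59 (adjusted p = 0.0038) at 48 h. The condensin subunit Ncapd2 fell, with log2 fold changes of -0.78, -0.79, -0.67 and -0.81 (adjusted p from 0.014 to 0.041). Diaph1, a formin related to Diaph3, fell, with log2 fold changes of -0.51 at 200 µM and 24 h (adjusted p = 8.3e-04) and -0.33 (adjusted p = 0.024) and -0.51 (adjusted p = 5.9e-04) at 48 h, and was at -0.25 at 8 µM and 24 h (adjusted p = 0.11).

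Of 57 calls of the 40 genes against vehicle, 29 held in each of 42 other settings that tested the gene, and none changed direction. The filter at the 60th percentile tested only 24 of the 40, so calls of the others were not tried there. Median centring of the arrays ended 20 of them, 16 at 24 h, among these the 24 h calls of Pcna, Cdkn1a, Cdkn1b and Plk2. The centred values of these calls were 0.30 and 0.33 for Pcna, -0.15 and -0.17 for Cdkn1a, -0.49 and -0.56 for Cdkn1b, and 0.27 and 0.28 for Plk2. Further 24 h calls ended were those of Myc, Cdc20 and Tyms at 200 µM and of Ccnd3 at both doses. Those of Ccnd1, Rb1 and Gadd45a at 8 µM and 24 h ended too. At 48 h the calls ended were those of Cdkn1a, Birc5 and Cenpf at 8 µM and of Cdkn1b at 200 µM. Median centring also moved the share of rises among all calls at 48 h from 46.9% to 73.1% at 8 µM and from 49.6% to 73.7% at 200 µM. Without 48 h vehicle replicate 4, centring ended only those of Birc5 and Cenpf, and the shares were 48.4% and 46.3%.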

How the data were processed

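RNA of 30 wells was hybridised to 1 rat expression array each. The deposited values are linear signal intensity per probe set, made with MAS5 per the submitters' processing notes (its version is not given in the sources used here), and the authors' scaling was kept. Values were tested as log2(signal + 16) in limma 3.58.1 (R 4.3.3) with 6 group means and trended empirical Bayes, after keeping probe sets with a signal above 281 (the 40th percentile) on at least 5 arrays. Each gene was represented by its probe set of highest mean among those with a single symbol, and p-values were adjusted by Benjamini-Hochberg over 11545 genes in each of 9 contrasts. With 5 wells a group, the median standard error of a difference was 0.12. The members, classes and pathway lists were chosen with earlier results of these data known. Members given array by array were, in each class, the 4 called against vehicle with the largest moderated t, and in each pathway list the 3 such genes could be named. Gene symbols are those of the platform annotation, which has 1 symbol for 20832 of 31099 probe sets, several for 436 and none for 9780. Figures were drawn in Python 3.11.15. Alternatives were the pseudocount, filter, normalization, probe set choice, fitted groups, array weights, a block of array number runs and each array left out. The test was checked on simulated data.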

Additional observations from a re-analysis of the deposited data

Results flagged for a closer look

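Among 96 groups of 5 wells, 6 for each of 16 genes, 9 held a well far outside the range of the others, where chance gives about 1 in 20, and 3 of the 9 were 48 h vehicle replicate 4. On that array Myc read 3205, Ccnd1 200.1 and Gadd45a 7570.1, each the lowest of its 5 wells. The other low wells were 24 h vehicle replicate 1 for Pcna (6910.3) and Diaph3 (1149), and, for wells at 200 µM and 48 h, replicate 5 for Mcm7 (1189.6) and replicate 1 for Cdc20 (335). The high ones were the 200 µM well of replicate 2 at 24 h for Ccne1 (748) and the 8 µM well of replicate 4 at 24 h for Cdc20 (555).

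The effect of a dose differed between 24 h and 48 h for 4 genes, by a test of the difference itself. The log2 effect on Spc24 was higher at 48 h by 1.10 at 8 µM and 1.23 at 200 µM. The effect on Cdkn1a was lower at 48 h, with differences of -0.24 at 8 µM and -0.32 at 200 µM. That on Gadd45b differed by -0.50 at 200 µM, and that on Mcm7 by 0.55 at 8 µM. Without 48 h vehicle replicate 4 the effects on Myc at 200 µM (-0.53, adjusted p = 9.2e-04 from limma) and Plk2 at 8 µM (-0.26, adjusted p = 0.048 from limma) differed as well.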

How the results depend on the processing

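Counts of the 40 genes against vehicle stayed within 1.5 times of those reported under the settings run, except under median centring (24 h: 3 higher and 3 lower at 8 µM, 3 and 2 at 200 µM; 48 h: 3 lower at 8 µM). Omissions of single arrays gave 6 to 11 higher and 5 lower at each dose at 24 h, 8 to 11 higher and 4 to 8 lower at 8 µM and 48 h, and 9 to 11 higher and 5 lower at 200 µM and 48 h. No value changed direction with a call. The causes were not tested.

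Counts below are of rarer calls. Median centring gave, for dose at 48 h, 1 lower, for the change at 8 µM 1 higher and 0 lower, for that at 200 µM 0 lower, and for vehicle over time 0 higher and 1 lower. Quantile normalization gave 1 higher for dose at 48 h, 2 lower for the change at 8 µM and 2 higher for that at 200 µM. The 60th percentile filter, which tested 24 members, gave 1 higher for dose at 48 h. The mean of probe sets gave 0 lower for the change at 8 µM and 1 lower at 200 µM. Fits of only the groups compared gave 1 and 2 higher for dose at 24 h and 48 h, 1 higher and 0 lower for the change at 8 µM, and 1 higher and 1 lower for vehicle over time. A block of array number runs gave 1 higher for dose at 48 h and 2 higher for the change at 200 µM. Array weights gave 1 higher and 2 lower for dose at 24 h, 2 higher at 48 h and 2 lower for the change at 8 µM.

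The next settings were chosen after seeing the data. Median centring without 48 h vehicle replicate 4 gave 2 higher for dose at 48 h, 0 lower for the change at 8 µM and 1 lower for vehicle over time. Quantile normalization without it gave 1 higher and 2 lower for dose at 24 h, 2 higher at 48 h, 2 lower for the change at 8 µM and 2 higher at 200 µM. Leaving out single arrays gave 0 to 1 higher for dose at 24 h, 0 to 2 higher at 48 h, 1 to 2 higher and 0 to 2 lower for the change at 8 µM, 1 to 2 higher at 200 µM, and 1 to 2 lower for vehicle over time. Of the 57 calls against vehicle, 2 were lost under quantile normalization, 9 in fits of only the groups compared and 4 with the mean of probe sets. The 6 members below the filter were left out of the main test for their low signal. They were fitted only with no filter, and those values are not reported here. The titles number the arrays in runs of 6, with 1 array of each group in a run, and do not say what a run shares. With the runs as a block, 1 of the 57 calls was lost.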
